A study of Mus musculus with 9 samples.

Results

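The comparison is of SV5-NN4, a mouse fibroblast clone that carries the T antigen of SV40 and added wild-type N-ras, with SV5, a clone transformed by SV40 alone, each on 3 Affymetrix arrays. Its members are all probe sets with exactly 1 gene symbol in the platform annotation, 20393 of 22690, of which 13 are array controls. The others were reduced to 12393 genes, each read at its brightest probe set over the series. Arrays with equal replicate numbers were paired.

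Both clones derive from NIH 3T3, an established mouse fibroblast line, whose 3 arrays, labelled wild type, complete the series of 9 arrays. All lines grew in the same medium with calf serum, and total RNA was hybridised after labelling with biotin. The study, by its title, asked what the added wild-type N-ras does to malignant behaviour and to decorin. SV5 and SV5-NN4 are each labelled as a stable clone, so the effect of added N-ras and any other difference between these clones cannot be told apart. Nothing in the labels says that replicates came from separate cultures, so the spread between arrays may be technical.

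N-ras is a small GTPase that passes signals from growth factor receptors to the Raf, MEK and ERK kinases and to phosphatidylinositol 3-kinase. SV40 T antigen binds the retinoblastoma proteins, which otherwise hold E2F transcription factors in check, and binds p53. Fibroblasts make most of the extracellular matrix of connective tissue: collagens, the proteoglycans that coat them, the glycoproteins that tie cells to them, and the proteases and inhibitors that turn them over.

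Levels are log2(intensity + 1) throughout, differences are SV5-NN4 minus SV5 on that scale, and values given in threes are the arrays of replicates 1, 2 and 3. Median intensities of the 9 arrays were 56.2 to 62.35, and 9 control probe sets to bacterial transcripts, at 3.18 to 4.25, mark the floor of the measurement. The number of arrays limits the precision. Signal at the 3' end of a transcript relative to its 5' end, which grows as RNA degrades, was higher in SV5-NN4 in all 3 pairs. The pairs differed by 0.34, 0.30 and 1.24 for Actb (mean 0.63, SD 0.53, n = 3 pairs) and by 0.21, 0.49 and 0.69 for Gapdh (mean 0.46, SD 0.24, n = 3 pairs). The two-sided exact permutation p was 0.25 for each ratio, the smallest that 3 pairs can give. On the 9 arrays the log2 ratios themselves were 2.42 to 5.06 for Actb and 2.36 to 5.21 for Gapdh. Both were highest on NIH 3T3 replicate 3, which enters the fit on all 9 arrays. The part of these ratios in the results was not tested.

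SV5-NN4 had far less signal than SV5 for a small set of surface, matrix and imprinted genes. Of its 46 called rises, 15 were genes of DNA replication, repair, nucleotide supply or mitosis. In limma, with the replicate number as a block on all 9 arrays and p adjusted by Benjamini-Hochberg across the whole array, 130 of 12393 genes (1.05%) differed at an adjusted p under 0.05. Of these, 46 were higher in SV5-NN4 (0.371%) and 84 lower (0.678%), and all 130 had the same sign in 3 of 3 pairs. The whole array gave 196 called probe sets (0.864%). Without adjustment, 7.32% of genes were higher and 7.33% lower at p under 0.05, and 52.2% had a higher and 47.8% a lower mean. The median difference over all genes was 0.01, with 5th and 95th percentiles of -0.61 and 0.56.

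The falls were larger than the rises. The median called fall was -1.45 and the median called rise 1.23, and over all genes, called or not, 16 were lower by at least 8-fold and 1 was higher by as much. The arrays of the clones did not overlap for 73 of the 84 called falls and 39 of the 46 called rises; over all genes 4.32% were apart with SV5-NN4 lower and 4.74% with SV5-NN4 higher. In NIH 3T3 the mean was nearer to SV5 than to SV5-NN4 for 58 of the 84 falls and 39 of the 46 rises. The like share over all genes was not computed, so these counts are a description only. The number of calls rested on the design: 970 genes (7.83%; 3.7% higher and 4.12% lower) were called when the 6 arrays of the clones were fitted alone, and 11 genes (0.0888%) without the block. Of the 130 genes, 8 to 32 stayed called when a single clone array was left out, and 59 without NIH 3T3 replicate 2 (adjusted p up to 0.098 for the rest).

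**Figure D1:**
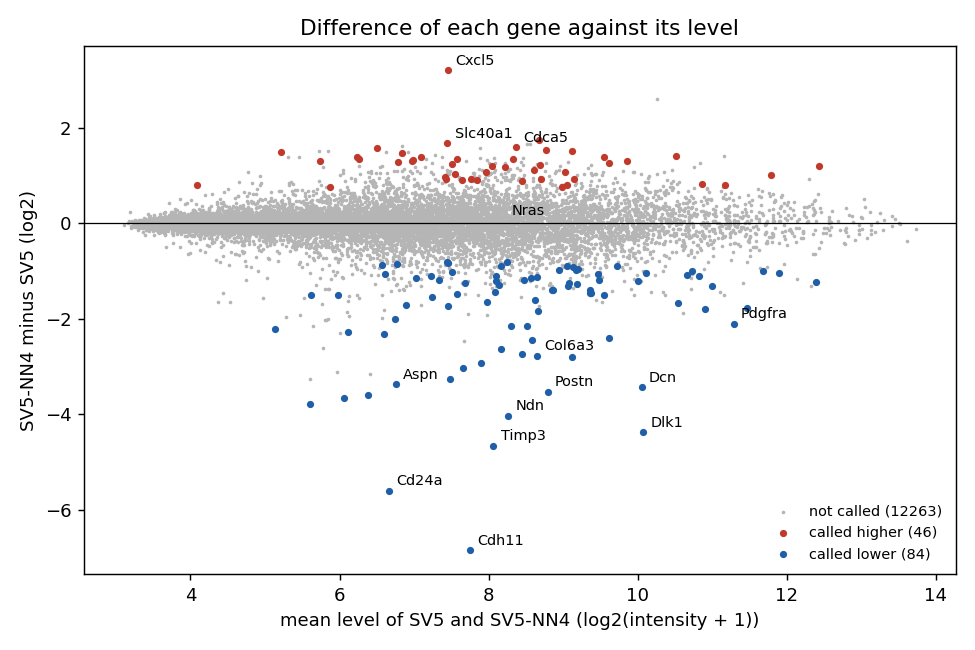
Each point is 1 of 12393 genes: the x axis gives its mean level in SV5 and SV5-NN4 in log2(intensity + 1), the y axis the difference SV5-NN4 minus SV5 in log2. The 84 genes called lower (blue) reach -6.84 at Cdh11, while the 46 called higher (red) reach 3.21 at Cxcl5, and Nras lies at 0.06.

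Nras itself, the gene added to SV5-NN4, read 8.43, 7.76 and 8.34 in SV5 and 8.23, 8.03 and 8.45 in SV5-NN4 at its brightest probe set. The levels overlapped, and the difference was 0.06 (SE 0.14, 95% interval -0.28 to 0.40, limma adjusted p = 0.96). At the remaining Nras probe sets the differences were 0.27 and 0.05. The labels do not give the species and coding extent of the added N-ras, so these probe sets may not read it, and they neither bear out nor contradict the label.

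Dcn, decorin, a small leucine-rich proteoglycan that coats collagen fibrils, is the gene the study's title names. It read 10.94, 12.48 and 11.90 in SV5 and 8.05, 9.85 and 7.11 in SV5-NN4. Every SV5 array was above every SV5-NN4 array, and NIH 3T3, at 11.72, 11.90 and 11.40, lay with SV5. Dcn fell by 3.43 (SE 0.46, limma adjusted p = 0.030), which is 10.8-fold lower. The call was lost without any single array of the clones, leaving -3.96 to -2.85 (adjusted p up to 0.14), and without the block (adjusted p = 0.22).

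At the brightest probe set of each gene, the widest falls were those of Cdh11 and Cd24a, both at the cell surface. Cdh11, a cadherin that joins mesenchymal cells to each other, read 10.75, 11.22 and 11.55 in SV5 and 4.42, 4.61 and 3.95 in SV5-NN4. Its SV5-NN4 levels lay within or just above the range of the bacterial controls, whereas NIH 3T3 read 11.32, 11.10 and 9.72. Cdh11 fell by 6.84 (SE 0.39, limma adjusted p = 0.0013), or 115-fold, the largest change of any gene at its brightest probe set, and stayed called without any single array. The N-cadherin gene was not called: Cdh2 differed by 0.46 (adjusted p = 0.53).

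Cd24a, which encodes a small lipid-anchored mucin-like glycoprotein, read 9.80, 8.60 and 10.00 in SV5 and 3.69, 3.91 and 4.02 in SV5-NN4. All 3 SV5-NN4 arrays were within the range of the bacterial controls, so the change was measured only down to that floor. Cd24a fell by 5.60 (SE 0.27, limma adjusted p = 0.0012), 48.4-fold, and its other probe sets differed by -4.74 and -2.97. The call held without any single array.

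Other surface receptors were lower too. Cd302, a C-type lectin receptor, read 7.58, 8.0 and 8.07 in SV5 and 5.05, 3.91 and 3.72 in SV5-NN4 (difference -3.65, SE 0.44), with an SV5-NN4 mean within the range of the bacterial controls. Scara3, a scavenger receptor family member, read 9.31, 9.01 and 9.04 against 5.53, 6.08 and 5.95 (difference -3.27, SE 0.27). Thy1, a lipid-anchored glycoprotein of fibroblasts, was tighter between arrays, at 9.47, 9.74 and 9.47 in SV5 and 8.07, 8.24 and 8.20 in SV5-NN4 (difference -1.39, SE 0.11). Limma's adjusted p was 0.021, 0.0054 and 0.0056. With Cd24a these were the called members among 26 measured surface glycoproteins and adhesion receptors, 4 lower and 0 higher, with a list median of -0.28. All 4 were also called without the block. Cd302 was lost without any single clone array but SV5-NN4 replicate 1 (adjusted p up to 0.16). Scara3 was lost without SV5-NN4 replicate 2 or 3, and Thy1 without SV5 replicate 1 or 2 or SV5-NN4 replicate 2 or 3, with adjusted p up to 0.075 for both.

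The clustered beta protocadherins, a family of cadherin-like surface proteins best known in neurons, supplied the other called members of the cadherin list. Pcdhb20 read 7.22, 7.85 and 8.17 in SV5 and 4.97, 5.70 and 5.64 in SV5-NN4 (difference -2.31, SE 0.15, limma adjusted p = 0.0022). Pcdhb9 differed by -2.21, Pcdhb21 by -1.50 and Pcdhb22 by -0.85, with adjusted p of 0.0054, 0.019 and 0.034; the SV5-NN4 mean of Pcdhb9, 4.03, was at the bacterial controls. In all, 5 of 29 measured cadherins, catenins and protocadherins fell and 0 rose, with a list median of -0.09. In 3 of 3 pairs 11 of the 29 were lower and 2 higher, at an unadjusted p under 0.05 8 were lower and 0 higher, and the 6-array fit called 7 lower. Ctnnb1, the catenin that links cadherins to the cytoskeleton, differed by -0.26 (adjusted p = 0.53). Protocadherin genes of the cluster are similar in sequence and their probe sets may share signal. Pcdhb20 kept its call without any single array; Pcdhb9 lost it without SV5-NN4 replicate 2 (adjusted p = 0.063), and Pcdhb21 and Pcdhb22 without any array of the clones (up to 0.22).

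**Figure D2:**
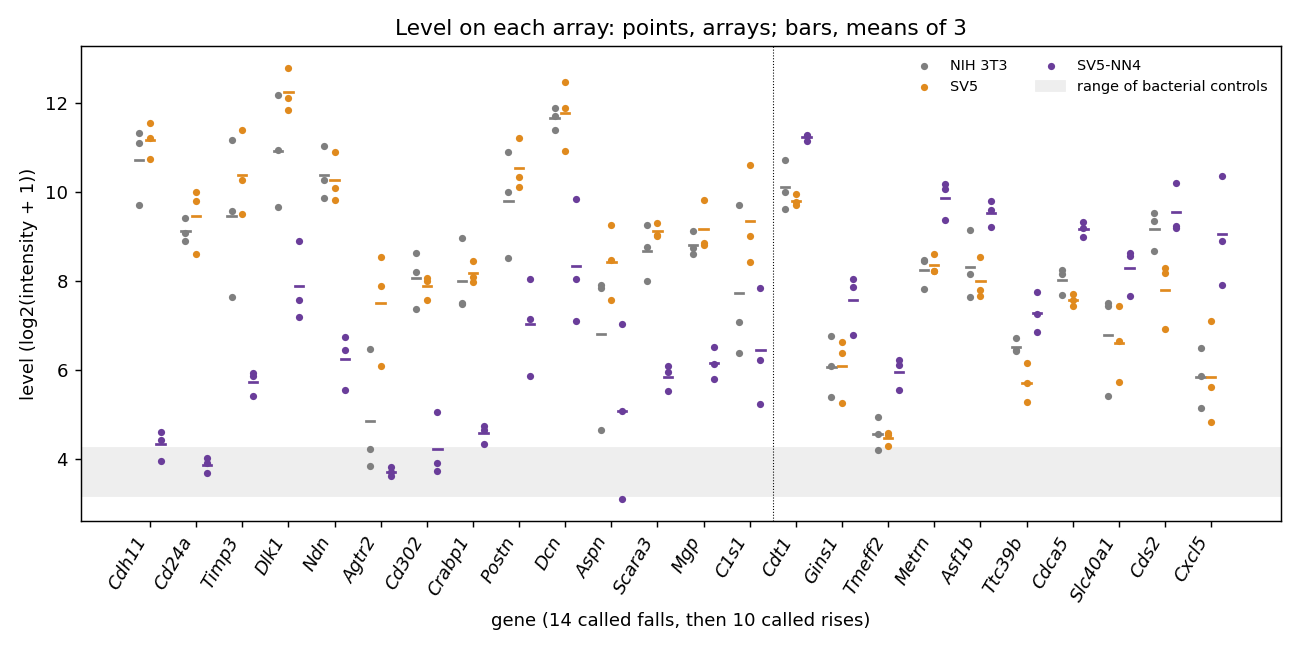
Levels in log2(intensity + 1) on every array of NIH 3T3 (grey), SV5 (orange) and SV5-NN4 (purple) for 14 called falls and 10 called rises; bars are means of 3 arrays, and the band is the range of the bacterial controls. The SV5-NN4 points of Cd24a and Agtr2 lie inside the band, and NIH 3T3 lies near SV5 for genes such as Cdh11, Ndn and Dcn. For Agtr2 and C1s1 the NIH 3T3 mean is nearer to SV5-NN4 than to SV5.

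Imprinted genes, which are expressed from the chromosome of a single parent and often restrain or drive growth, held several of the largest falls. Dlk1, a transmembrane protein related to Notch ligands that keeps precursor cells undifferentiated, read 11.85, 12.11 and 12.80 in SV5 and 7.19, 7.57 and 8.90 in SV5-NN4. It fell by 4.37 (SE 0.27, limma adjusted p = 0.0019), 20.6-fold, and the call held without any single array. Ndn, necdin, a growth-suppressing protein of the MAGE family, read 9.83, 10.90 and 10.10 in SV5 and 6.73, 6.46 and 5.55 in SV5-NN4. It fell by 4.03 (SE 0.31, adjusted p = 0.0050), or 16.3-fold, and was lost at this probe set without replicate 2 of either clone (adjusted p up to 0.063). Of its other 7 probe sets 4 were called, with larger differences of -5.69, -5.94, -6.17 and -6.13 (limma adjusted p of 0.0012 to 0.0013) and SV5-NN4 means of 3.35 to 4.12, at the level of the bacterial controls. The remaining Ndn probe sets, dim in both clones, differed by -0.24, -0.28 and 0.05. NIH 3T3 again lay with SV5 for Ndn, at 9.87, 11.03 and 10.27.

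Grb10, an imprinted adaptor that dampens insulin receptor signalling, fell by 1.04 (SE 0.17, limma adjusted p = 0.044) from 10.62, 10.22 and 11.07 to 9.64, 9.31 and 9.84. Igf2, the imprinted growth factor, read 8.78, 10.23 and 7.68 in SV5 and 7.0, 6.28 and 6.01 in SV5-NN4. Its arrays did not overlap between the clones, yet the SV5 spread was wide and the difference of -2.47 was not called (adjusted p = 0.14). Of 24 measured growth-suppressing and imprinted genes 4 fell, Dcn being the fourth, and 0 rose. The list median was -0.30, and 19 of 24 members had a lower mean. Grb10 lost its call without any single array of the clones (adjusted p up to 0.31).

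Among small leucine-rich proteoglycans, Aspn, asporin, which binds collagen beside decorin, read 7.57, 8.47 and 9.26 in SV5 and 3.09, 5.08 and 7.03 in SV5-NN4. The SV5-NN4 arrays ranged widely, but none reached an SV5 array. Aspn fell by 3.37 (SE 0.49, limma adjusted p = 0.036), and the call was lost without any single array of the clones (adjusted p up to 0.21). Dcn and Aspn were the called members among 11 measured, and the list median was -0.45, against 0.01 over all genes. SV5-NN4 was lower in 3 of 3 pairs for 9 of the 11, against 20.6% of all genes. Biglycan, the closest relative of decorin, showed a smaller difference at its brightest probe set: Bgn read 11.84, 11.80 and 11.77 in SV5 and 11.26, 11.07 and 11.57 in SV5-NN4 (-0.50, adjusted p = 0.21). Of its other probe sets 1 was called lower (-0.76, SE 0.11, adjusted p = 0.037), and the third differed by -0.89 (adjusted p = 0.050, just above the threshold).

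The collagens called lower at their brightest probe set were mainly the 3 classical chains of collagen VI, which assemble into beaded microfibrils around cells. Col6a3 read 10.13, 9.58 and 10.38 in SV5 and 7.34, 6.63 and 7.81 in SV5-NN4, a fall of 2.77 (SE 0.25, limma adjusted p = 0.0091). Col6a2 read 11.98, 11.88 and 11.55 against 10.18, 10.19 and 9.66, a fall of 1.79 (SE 0.28, adjusted p = 0.043). Col6a1 read 12.21, 12.16 and 12.67 against 10.45, 10.61 and 10.68, a fall of 1.77 (SE 0.26, adjusted p = 0.038). For each chain every SV5-NN4 array lay below every SV5 array. Col3a1, a fibrillar collagen of loose connective tissue, fell by 1.05 (SE 0.15, adjusted p = 0.034). These were the 4 called among 25 measured collagens, with 0 higher and a median of -0.31. Col11a1 missed the threshold at its brightest probe set (-1.63, limma adjusted p = 0.055). At its other probe set it was called lower (-2.24, adjusted p = 0.013), a wider fall than that of Col6a1 or Col6a2. Col1a1, the main fibrillar chain, read 12.80, 11.40 and 11.51 in SV5 and 11.02, 10.13 and 10.08 in SV5-NN4 and was not called (-1.49, adjusted p = 0.11). Col6a3 lost its call without replicates 1 or 2 of SV5 or 2 or 3 of SV5-NN4 (adjusted p up to 0.099), and Col6a1, Col6a2 and Col3a1 without any single array of the clones (up to 0.29).

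Genes whose products modify collagen were lower at 2 of 19 measured, and 0 were called higher (list median -0.24). Members went both ways: in 3 of 3 pairs 5 were higher and 6 lower. At an unadjusted p under 0.05, 3 were higher and 4 lower, and the 6-array limma fit called 2 higher and 5 lower. The highest member, Tgm2, differed by 1.37 and was not called. Crtap, part of the complex that hydroxylates collagen prolines, read 9.01, 9.71 and 9.72 in SV5 and 6.45, 7.30 and 6.82 in SV5-NN4. It fell by 2.62 (SE 0.16, limma adjusted p = 0.0019), 6.17-fold, and kept its call without any single array. Lox, the oxidase that crosslinks collagen and elastin, fell by 1.23 (SE 0.15, adjusted p = 0.022) from 13.06, 12.71 and 13.26 to 11.91, 11.63 and 11.79. The Lox call was lost without any single array of the clones (adjusted p up to 0.18).

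Of 37 measured matricellular, basement membrane and elastic fibre genes, 3 fell and 0 rose. Postn, periostin, a secreted protein that binds integrins and collagen, read 10.11, 10.34 and 11.21 in SV5 and 5.88, 7.15 and 8.06 in SV5-NN4 (difference -3.53, SE 0.45). Mgp, matrix Gla protein, an inhibitor of calcification, read 8.86, 8.82 and 9.83 against 6.52, 6.13 and 5.80 (difference -3.02, SE 0.29). Thbs2, a thrombospondin, read 11.07, 10.89 and 12.16 against 8.81, 9.25 and 11.02 (difference -1.68, SE 0.24). Limma's adjusted p was 0.025, 0.012 and 0.036. The clones did not overlap for Postn or Mgp, whereas SV5-NN4 replicate 3 exceeded SV5 replicate 2 for Thbs2. The list median was -0.45, and 26 of the 37 were lower in 3 of 3 pairs while 0 were higher in 3 of 3. Fn1, fibronectin, differed by -1.32 and missed the threshold (adjusted p = 0.068). Postn and Thbs2 lost their calls without any single array of the clones (adjusted p up to 0.19), and Mgp without replicate 2 of either (up to 0.089).

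Of 32 measured matrix proteases and inhibitors, 5 fell and 0 rose. Timp3, an inhibitor of metalloproteases that is held in the matrix, read 9.50, 11.40 and 10.27 in SV5 and 5.86, 5.93 and 5.42 in SV5-NN4. It fell by 4.65 (SE 0.55, limma adjusted p = 0.021), 25.2-fold. Its other probe sets differed by -3.80 (called), -1.50 and -0.57 (not called). Reck, a membrane-anchored inhibitor of metalloproteases, read 8.44, 9.06 and 8.90 against 6.81, 7.52 and 7.11. It fell by 1.66 (SE 0.12, adjusted p = 0.0034), and its call held without any single array.

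On the protease side, Adamts1, a secreted metalloprotease that cuts large proteoglycans, read 10.51, 10.46 and 10.57 in SV5 and 7.38, 7.76 and 8.04 in SV5-NN4. It fell by 2.79 (SE 0.24, limma adjusted p = 0.0082), and its NIH 3T3 mean, 8.86, was nearer to SV5-NN4 than to SV5. Mmp14, a membrane-bound collagenase, fell by 1.21 (SE 0.16, adjusted p = 0.025) from 10.29, 10.71 and 10.81 to 8.99, 9.68 and 9.52. Plat, tissue plasminogen activator, fell by 1.19 (adjusted p = 0.048) and is named after its value was seen. The median of the whole list was -0.24. In 3 of 3 pairs 14 of the 32 were lower and 4 higher. At an unadjusted p under 0.05, 11 were lower and 2 higher, and the 6-array limma fit called 9 lower and 0 higher. Timp3 lost its call without any single clone array but SV5-NN4 replicate 1 (adjusted p up to 0.18), Adamts1 without SV5 replicate 2 or SV5-NN4 replicate 2 or 3 (up to 0.091), and Mmp14 and Plat without any of the 6 (up to 0.22).

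**Figure D3:**
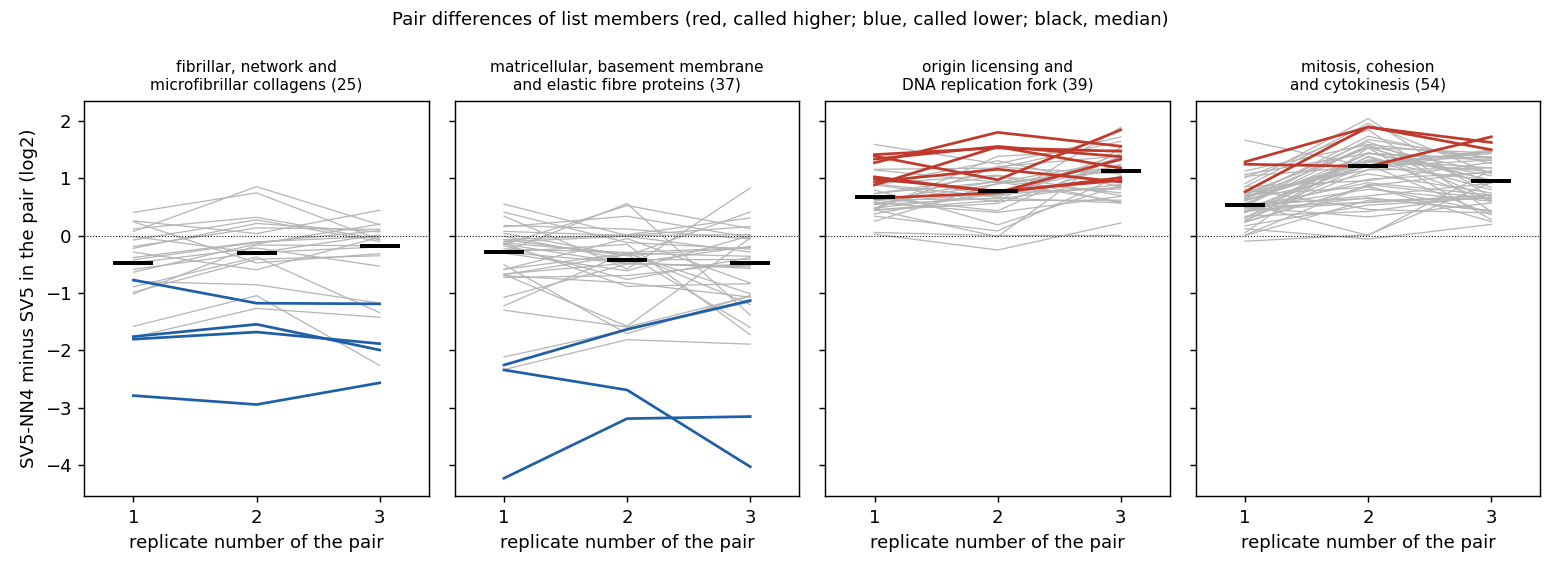
Each line is 1 gene of a list, and the y axis gives the SV5-NN4 minus SV5 difference in log2 in the pair of each replicate number on the x axis; black bars are list medians, red and blue lines called genes. Of 54 mitosis genes 50 lie above 0 in 3 of 3 pairs and of 39 replication genes 36, whereas of 37 matricellular genes 26 lie below 0 in 3 of 3.

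Among growth factor receptors and their ligands, 1 of 54 measured genes was called at its brightest probe set. At an unadjusted p under 0.05, 2 of the 54 were higher and 10 lower, and the 6-array limma fit called 1 higher and 9 lower. Ptn (-3.19), Flt1 (-2.46) and Egfr (-1.42) were called lower at another probe set (limma adjusted p of 0.014, 0.025 and 0.036). Ptn differed by -1.43 at its brightest (adjusted p = 0.091). Pdgfra, a receptor tyrosine kinase through which platelet-derived growth factor drives fibroblasts, read 11.99, 12.22 and 12.81 in SV5 and 10.06, 9.90 and 10.75 in SV5-NN4. It fell by 2.10 (SE 0.15, limma adjusted p = 0.0032), 4.3-fold, and lost its call without SV5-NN4 replicate 2 (adjusted p = 0.057). Its partner receptor Pdgfrb differed by -0.64 (adjusted p = 0.16). Agtr2, an angiotensin receptor outside these lists, read 6.08, 7.89 and 8.53 in SV5 and 3.81, 3.72 and 3.61 in SV5-NN4, within the range of the bacterial controls. It fell by 3.79 (SE 0.56, adjusted p = 0.037) and lost its call without any single clone array but SV5-NN4 replicate 1 (up to 0.21). For Agtr2 NIH 3T3 read 3.84, 4.22 and 6.48, a mean nearer to SV5-NN4 than to SV5. In the insulin-like growth factor axis, 2 of 19 measured genes fell. At an unadjusted p under 0.05, 3 of the 19 were higher and 5 lower, and the 6-array limma fit called 1 higher and 5 lower. Grb10 is given with the imprinted genes. Pappa, a protease that frees insulin-like growth factors from a binding protein, read 7.79, 8.56 and 8.60 against 6.45, 6.92 and 6.39 (difference -1.73, SE 0.17, adjusted p = 0.013). Of the 6 clone arrays, only leaving out SV5-NN4 replicate 1 kept the Pappa call (otherwise adjusted p up to 0.10).

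Ras proteins carry the receptor signal, and the ERK kinases induce their own inhibitors. Rasa3, a GTPase-activating protein that switches Ras off, was the called gene among 45 measured Ras GTPases, regulators and effectors: it read 7.23, 8.0 and 8.82 in SV5 and 6.30, 6.11 and 6.99 in SV5-NN4. It fell by 1.55 (SE 0.21, limma adjusted p = 0.030), and the call was lost without any single array of the clones (adjusted p up to 0.22). Of 36 measured ERK feedback and output genes, 0 were called, at a median of -0.01, where 1.05% of all genes were called. At an unadjusted p under 0.05, 7 of the 36 were higher and 5 lower, both above the shares over all genes (7.32% and 7.33%). On the 6 arrays of the clones alone limma called 4 higher and 2 lower, so the members with a nominal difference went both ways. The widest members were Spry2, an inhibitor of the pathway, at -1.15 (adjusted p = 0.11), and Ier3, an early response gene, at 1.14 (adjusted p = 0.32). TGF-beta and BMP signalling had 0 of 47 called and a median of -0.04, and the Myc, Max and Mxd network had 0 of 12 called. Mycn read 11.82, 11.09 and 12.57 in SV5 and 12.84, 12.21 and 13.23 in SV5-NN4 (0.93, adjusted p = 0.40). For these 2 lists, 0 and 1 genes were higher and 6 and 1 lower at an unadjusted p under 0.05, and the 6-array fit called 0 and 1 higher and 3 and 0 lower.

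DNA replication held 9 of the 46 called rises. Cells license origins of replication by loading the MCM helicase with the help of Cdt1, and histone chaperones such as Asf1b and Chaf1b then package the new DNA. Of 39 measured origin and fork genes, 9 rose and 0 fell, the list median was 0.88, and 36 of 39 were higher in 3 of 3 pairs, against 22% of all genes. On the 6 arrays of the clones alone, 30 of the 39 were called higher; without the block 0 were.

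The promoters of the largest called rises in the replication, nucleotide and mitosis lists that hold a motif searched are shown because those genes moved together. Each is the 250 bases before the start of the gene in RefSeq on build GRCm38.p6, and capitals mark matches to 4 E2F motifs (TTTCCCGC, TTTGGCGC, TTTGGCGG, TTTCGCGC), to the cell cycle homology elements TTTGAA or TTCGAA, to CCAAT, which NF-Y binds, and to the E-box CACGTG, on either strand.
Cdca5 (chr19:6084847-6085096, plus strand): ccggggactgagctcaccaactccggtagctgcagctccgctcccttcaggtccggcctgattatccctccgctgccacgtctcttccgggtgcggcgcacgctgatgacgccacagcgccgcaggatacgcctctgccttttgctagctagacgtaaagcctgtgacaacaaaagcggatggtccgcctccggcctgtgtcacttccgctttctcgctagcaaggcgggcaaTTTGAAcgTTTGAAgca
Asf1b (chr8:83955444-83955693, plus strand): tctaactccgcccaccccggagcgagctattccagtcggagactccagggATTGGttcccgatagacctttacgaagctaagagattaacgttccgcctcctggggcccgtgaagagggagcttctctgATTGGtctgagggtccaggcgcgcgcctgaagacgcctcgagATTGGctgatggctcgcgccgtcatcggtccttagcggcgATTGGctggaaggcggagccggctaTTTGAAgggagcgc
Aurka (chr2:172370571-172370820, minus strand): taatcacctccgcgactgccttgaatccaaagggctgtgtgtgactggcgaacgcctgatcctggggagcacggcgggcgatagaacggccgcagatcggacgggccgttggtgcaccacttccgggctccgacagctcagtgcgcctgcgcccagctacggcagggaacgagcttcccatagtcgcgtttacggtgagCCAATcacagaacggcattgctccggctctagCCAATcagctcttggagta
Rpa1 (chr11:75348384-75348633, minus strand): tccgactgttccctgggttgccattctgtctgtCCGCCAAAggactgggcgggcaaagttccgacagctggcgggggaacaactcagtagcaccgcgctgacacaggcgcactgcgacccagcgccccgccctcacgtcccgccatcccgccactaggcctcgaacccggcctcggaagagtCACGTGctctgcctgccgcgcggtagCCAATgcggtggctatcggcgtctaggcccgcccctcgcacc
The Cdca5 promoter holds TTTGAA at -17 and -9 from the start, and that of Asf1b holds it at -14 with 4 CCAAT on the other strand. The Aurka promoter holds 2 CCAAT, and the Rpa1 promoter holds an E2F motif on the other strand, CACGTG and CCAAT. No marked match overlaps another in these 4 sequences.

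Over 9882 measured genes with a RefSeq promoter, any of the 4 E2F motifs was present in 3.7%, against 25.8% of 31 replication promoters and 6.52% of 46 mitosis promoters. TTTGAA or TTCGAA stood in 15.5% of all promoters, 22.6% of the replication promoters and 39.1% of the mitosis promoters. CCAAT was in 39.8%, 64.5% and 67.4%. Of 37 genes called higher with a promoter 13.5% held an E2F motif, and of 58 called lower 1.72% did. For TTTGAA or TTCGAA the shares were 16.2% and 22.4%, for CCAAT 54.1% and 39.7%, and for CACGTG 13.5% and 3.45%, against 9.19% of all promoters for the last. A match is a description of the sequence and was not tested as a binding site.

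Asf1b read 8.53, 7.81 and 7.66 in SV5 and 9.80, 9.61 and 9.21 in SV5-NN4 (difference 1.54, SE 0.19, limma adjusted p = 0.023). Cdt1 was steadier, at 9.95, 9.71 and 9.77 against 11.28, 11.26 and 11.14 (difference 1.42, SE 0.20, adjusted p = 0.035). Gins1, a subunit of the helicase complex, read 6.64, 5.26 and 6.39 against 8.05, 6.78 and 7.86 (difference 1.47, SE 0.14, adjusted p = 0.011). None of these genes overlapped between the clones, and Gins1 differed by a like amount in every pair although both replicate 2 arrays were low. Chaf1b, a subunit of chromatin assembly factor 1, read 5.55, 5.65 and 5.42 against 6.94, 6.62 and 7.26 (difference 1.40, SE 0.17, adjusted p = 0.023). Rpa1, the large subunit of the protein that coats single-stranded DNA, read 12.10, 11.49 and 11.91 against 12.98, 13.03 and 13.09 (difference 1.20, SE 0.17, adjusted p = 0.036). The remaining called members, named after their values were seen, were Pole (1.03), Mcm7 (1.01), Mcm10 (0.91) and Fen1 (0.80). Of the 6 leave-outs of a clone array, Asf1b kept its call only in that of SV5-NN4 replicate 1, and the other 8 were lost without any single array of the clones (adjusted p up to 0.31).

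Mitosis genes showed the highest median of the 45 lists, 0.93. All 54 measured members had a higher mean in SV5-NN4, 50 in 3 of 3 pairs, but 3 passed the test and 0 fell. Cdca5, sororin, which holds sister chromatids together, read 7.70, 7.44 and 7.57 in SV5 and 8.98, 9.33 and 9.19 in SV5-NN4. It rose by 1.60 (SE 0.18, limma adjusted p = 0.018), 3.03-fold, and was the single rise called also without the block (adjusted p = 0.039). Aurka, a kinase of the spindle poles, read 6.49, 5.92 and 6.78 against 7.74, 7.12 and 8.51 (difference 1.39, SE 0.15, adjusted p = 0.014). Ncaph, a subunit of condensin, read 9.71, 8.30 and 8.56 against 10.47, 10.20 and 10.05 (difference 1.39, SE 0.21, adjusted p = 0.038). On the 6 arrays of the clones alone 34 of the 54 were called higher. Spag5, a spindle protein outside the list, rose by 1.32 (adjusted p = 0.036). Tubg1, the gamma-tubulin that nucleates microtubules, rose by 1.28 (adjusted p = 0.038), the single called gene among 25 tubulins and intermediate filaments. Of the 6 leave-outs of a clone array, Cdca5, Ncaph, Spag5 and Tubg1 kept their calls only in that of SV5-NN4 replicate 1, and Aurka was lost without any array of the clones (adjusted p up to 0.28).

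DNA repair and nucleotide supply followed with fewer calls. Chek2, a checkpoint kinase that answers DNA breaks, read 6.63, 7.19 and 6.88 in SV5 and 8.0, 8.69 and 8.04 in SV5-NN4 (difference 1.34, SE 0.16, limma adjusted p = 0.022). H2ax, the histone variant marked at breaks, rose by 0.77 (SE 0.12, adjusted p = 0.039). These were the 2 called among 26 recombination and mismatch repair genes, with 0 lower and a median of 0.58. Of 20 nucleotide synthesis genes, 1 rose and 0 fell at a median of 0.58: Shmt2, the mitochondrial enzyme that passes the carbon of serine to folate, read 9.23, 8.69 and 9.02 against 10.07, 10.19 and 10.49 (difference 1.27, SE 0.18, adjusted p = 0.034). Dck, a salvage kinase for deoxynucleosides, differed more, by 1.67, but was not called (adjusted p = 0.19), and is named after its value was seen. The retinoblastoma family, E2F factors and G1 regulators had 0 of 29 called and a median of 0.19. At an unadjusted p under 0.05, 7 of these 29 were higher and 2 lower, and the 6-array fit called 4 higher. The Chek2, H2ax and Shmt2 calls were lost without any single array of the clones (adjusted p up to 0.29).

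Growth-related lists with few calls still had medians above 0. The serine, one-carbon and amino acid list had a median of 0.36 and 1 call of 34, again Shmt2. Proteasome subunits had a median of 0.36 with 31 of 34 means higher and 0 called. Ribosome biogenesis genes had a median of 0.26 with 36 of 41 means higher and 0 called, and respiratory chain subunits a median of 0.19 with 0 of 53 called. At an unadjusted p under 0.05, 16 proteasome, 14 ribosome biogenesis and 6 respiratory chain genes were higher and 0, 0 and 1 lower, and the 6-array limma fit called 6, 3 and 2 higher. In cholesterol synthesis and uptake the means were lower for 21 of 26 at a median of -0.20; 0 were called, 8 were lower and 0 higher at an unadjusted p under 0.05, and the 6-array fit called 3 lower.

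**Figure D4:**
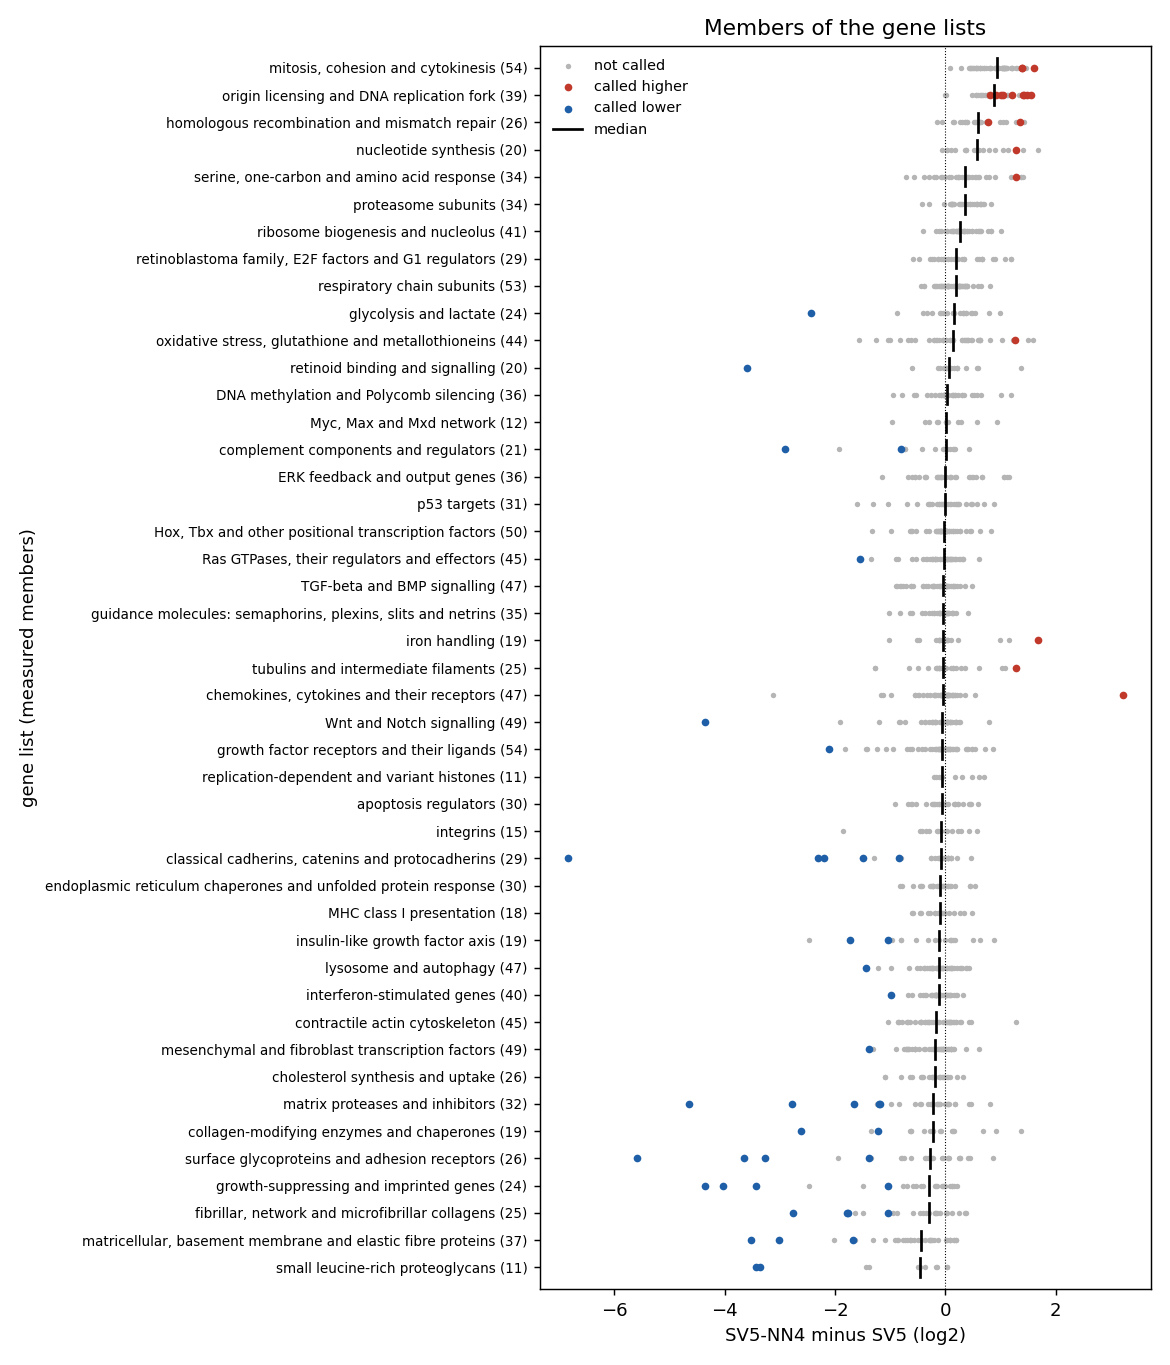
Each row is 1 of 45 gene lists, sorted by median, with the number of measured members in brackets; the x axis gives the SV5-NN4 minus SV5 difference in log2, points are genes and black bars medians. Mitosis (0.93) and replication (0.88) lie at the top, small leucine-rich proteoglycans (-0.45) and matricellular genes (-0.45) at the bottom, and in most lists the called genes are few and far from the median.

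The largest rise was Cxcl5, a chemokine that draws neutrophils. It read 4.84, 5.61 and 7.10 in SV5 and 8.90, 7.92 and 10.37 in SV5-NN4, and the clones did not overlap. Cxcl5 rose by 3.21 (SE 0.52, limma adjusted p = 0.049), 9.27-fold, just inside the threshold, and was lost without any single array of the clones (adjusted p up to 0.32). It was the called gene among 47 chemokines, cytokines and receptors. Cxcl12, a chemokine made by fibroblasts, lay at the other end of the list at -3.12 without a call (adjusted p = 0.15), its SV5 arrays spread from 5.18 to 9.60.

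Slc40a1, ferroportin, the exporter of iron from cells, read 7.43, 6.66 and 5.73 in SV5 and 8.56, 8.63 and 7.67 in SV5-NN4. It rose by 1.68 (SE 0.27, limma adjusted p = 0.043), the called gene among 19 of iron handling. Slc25a37, which imports iron into mitochondria, rose by 1.34 (adjusted p = 0.021). Srxn1, which restores oxidised peroxiredoxins, rose by 1.25 (adjusted p = 0.014) and was the called gene among 44 of the oxidative stress list. Cds2, an enzyme of phosphoinositide synthesis, rose by 1.75 (adjusted p = 0.038) from 8.29, 6.92 and 8.17 to 9.24, 9.19 and 10.21. NIH 3T3, at 9.53, 8.67 and 9.35, was on the side of SV5-NN4. The other Cds2 probe sets differed by 0.80, -0.02, 1.04 and 0.33, none of them called. Other large rises were Ttc39b (1.58), Metrn (1.52), a secreted neurotrophic factor, Tmeff2 (1.49), Car6 (1.35), a secreted carbonic anhydrase, Rflnb (1.31), Larp1b (1.30) and Pgp (1.30), a phosphatase. The other Ttc39b probe sets differed by 0.45, 0.21 and 0.50, none of them called. Of the genes of this paragraph, Cds2 kept its call without SV5-NN4 replicate 1 and Metrn without SV5 replicate 2, and the others lost theirs without any single array of the clones (adjusted p up to 0.27).

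Further falls came from other gene families. Crabp1, which binds retinoic acid in the cytoplasm, read 7.98, 8.09 and 8.46 in SV5 and 4.64, 4.74 and 4.35 in SV5-NN4 (difference -3.60, SE 0.34, limma adjusted p = 0.011), the called gene among 20 of the retinoid list. C1s1, a protease of the classical complement pathway, read 8.44, 9.02 and 10.61 against 5.24, 6.22 and 7.85 (difference -2.92, SE 0.23, adjusted p = 0.0054). Both clones were highest on their replicate 3 array, and the pair differences were alike. Colec12, a scavenger receptor with a collagen-like stalk, fell by 0.80 (adjusted p = 0.038), and these were the 2 called among 21 complement genes. Pdk4, a kinase that shuts pyruvate out of the mitochondrial cycle, fell by 2.44 (SE 0.32, adjusted p = 0.028). Cebpd, a transcription factor of fibroblast and fat cell differentiation, fell by 1.39 (adjusted p = 0.036), 1 of 49 mesenchymal factors. The median of those factors was -0.19 with 37 of 49 means lower; 11 were lower and 0 higher at an unadjusted p under 0.05, and 9 were lower and 0 higher on the 6 arrays alone. Capn6 (-2.73), a calpain relative that binds microtubules, Rnase4 (-2.41), a secreted ribonuclease, and Ifitm3 (-0.99), an interferon-induced membrane protein, 1 of 40 interferon-stimulated genes, were lower as well. Crabp1 lost its call without any SV5 array or SV5-NN4 replicate 2, C1s1 without SV5 replicate 2 or SV5-NN4 replicate 2 or 3, and Pdk4, Cebpd, Colec12 and Ifitm3 without any single clone array (adjusted p up to 0.23). Capn6 kept its call without SV5 replicate 2 and Rnase4 without SV5-NN4 replicate 2, and both lost it without any other clone array (up to 0.15).

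Several other lists held 0 calls. Over all genes 1.05% were called, so 0 calls in a list of this size is near that share. Of 31 measured p53 targets 0 were called at a median of -0.01; the widest was Pltp (-1.60). Of 30 apoptosis regulators 0 were called, and of 50 Hox, Tbx and other positional factors 0, at medians of -0.07 and -0.02. At an unadjusted p under 0.05, 4 p53 targets, 4 apoptosis regulators and 5 positional factors were higher and 4, 5 and 5 lower. Each of these counts was above the share over all genes, 7.32% higher and 7.33% lower. The 6-array limma fit called 0, 1 and 2 higher and 4, 3 and 4 lower. Contractile actin genes had 0 of 45 called and a median of -0.18; 3 were higher and 15 lower at an unadjusted p under 0.05, and the 6-array fit called 1 higher and 7 lower.

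The remaining lists had medians between -0.11 and 0.15. With 1.05% of all genes called, 0 calls in lists of this size is near that share. Among 49 Wnt and Notch genes the called gene was Dlk1, among 24 of glycolysis and lactate it was Pdk4, and among 47 of lysosome and autophagy it was Atg12. Limma called 0 of 15 integrins, 0 of 11 histones, 0 of 18 MHC class I genes, 0 of 36 DNA methylation and Polycomb genes, 0 of 30 endoplasmic reticulum chaperones and 0 of 35 guidance molecules. In that order, 1, 2, 0, 3, 1 and 0 were higher and 1, 0, 1, 4, 3 and 4 lower at an unadjusted p under 0.05. The 6-array fit called 0, 2, 0, 2, 0 and 0 higher and 1, 0, 1, 4, 1 and 1 lower.

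A few called genes sit next to each other in gene order. Within 2 measured genes on either side in the RefSeq gene table, 12 of the 130 called genes had a neighbour called in the same direction. These were 10 of the 84 called lower and 2 of the 46 called higher. Over all genes, 0.678% were called lower and 0.371% higher. Those shares are for 1 gene, whereas up to 2 neighbours on each side were looked at, so the share to set beside these counts is larger. Whether neighbours were called together more often than scattered calls would give was not tested. The groups were Pcdhb20, Pcdhb21 and Pcdhb22; Eif1a (-1.05), Atg12 (-1.45) and Ap3s1 (-1.09); Rasa3 and Cdc16 (-1.26); and Col6a1 and Col6a2, all lower. Slc40a1 and Tmeff2 were both higher. Atg12 works in autophagosome formation, Ap3s1 in sorting to lysosomes and Cdc16 in the complex that degrades mitotic cyclins. Eif1a, Atg12, Ap3s1 and Cdc16 lost their calls without any single array of the clones (adjusted p up to 0.33).

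The cells of both clones carried fibroblast markers. The summed intensity of 15 measured fibroblast markers was 51131 to 69764 in SV5, 30244 to 41645 in SV5-NN4 and 35571 to 58782 in NIH 3T3, and 4 of the 15 fell (Dcn, Pdgfra, Thy1 and Col3a1) with 0 higher. The median of these markers was -0.64, below that of every other list; 13 of 15 means were lower, 12 in 3 of 3 pairs, and 11 were lower and 0 higher at an unadjusted p under 0.05. The part of this in the matrix and surface results was not tested, and Dcn, Pdgfra, Thy1 and Col3a1 each belong to another of the gene lists too. Vim, vimentin, 1 of the 2 members whose mean was not lower, read 12.56 in SV5 and 12.57 in SV5-NN4 on average, while Lum and Fap were near the bacterial controls in both. At their brightest probe sets, the markers of 7 other cell types had 0 called in limma and 0 called on the 6 arrays. Of these markers 1 gene, of muscle, was higher at an unadjusted p under 0.05. Their list medians were -0.03 to 0.09 and their sums overlapped between the clones. Flt1, of endothelium, was called lower at another probe set (-2.46, limma adjusted p = 0.025). Defining markers were near the floor in both clones: Epcam at 4.29 and 4.42, Pecam1 at 4.01 and 3.83, Ptprc at 3.97 and 3.76, and Adipoq at 3.87 and 3.97. In these bulk cultures fewer cells of a kind and less RNA per cell cannot be told apart.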

How the data were processed

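Total RNA of 3 lines was measured on 9 Affymetrix arrays, 3 per line. The deposited values are linear intensities; per the submitters' processing notes they were made with RMA, with no version or settings given in the sources used here. The arrays do not share 1 distribution: upper quartiles ran from 165.2 to 239.7 and were highest on the replicate 3 arrays, while medians were close. If the medians were matched, a shift common to most genes would be hidden. Values were used as log2(intensity + 1), which slightly understates differences of dim probe sets.

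Groups and replicate numbers came from the sample titles. After group means were subtracted, SV5 and SV5-NN4 arrays of equal number correlated at r = 0.76, 0.81 and 0.84 across probe sets, all 9 same-number pairs of lines at 0.26 to 0.84, and other pairs at -0.73 to 0.11, so the numbers were taken to pair the arrays. Within a line the values left after this subtraction cancel out, so positive same-number correlations push those of the other pairs down by arithmetic. The low values of the other pairs are therefore no separate support for the pairing. The pairing comes from the data, not from the labels, and the same data were then tested with it. The test was limma 3.58.1 in R 4.3.3: 1 mean per line with the replicate number as a block on all 9 arrays, eBayes, and Benjamini-Hochberg adjustment over 22690 probe sets, called at an adjusted p under 0.05. Data simulated for this comparison, with 22690 probe sets, were given to the same test. It recovered 55 of 100 planted 2-fold differences and 99 of 100 planted 4-fold differences, with 10 false calls. Without the block it recovered 0 and 26. These counts apply to the simulated data only and do not show that the block suits the real arrays. They are not split by level, so recovery of dim probe sets cannot be read from them.

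Symbols are those of the platform: 691 probe sets with several symbols and 1606 with none represent no gene, nor do the 64 array controls. Of 12393 genes 12369 were found by gene ID in RefSeq tables (GRCm38.p6), which served for neighbours and promoters. The 45 gene lists hold 1628 entries, 1411 of them measured, 42 through a newer symbol. Named were Nras and Dcn, the 20 largest called rises and falls with a line mean at or above the median level of 5.93, up to 4 called members per list and direction (or the 2 widest uncalled), genes called without the block, and called neighbours. The members, lists, tests and rules were chosen with earlier results of these data known. Alternatives were the fit without the block, the 6 arrays alone, an intensity trend, a pseudocount of 16, a level filter, median centring, quantile normalization, averaging each gene's probe sets, and leaving out each array or replicate number.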

Additional observations from a re-analysis of the deposited data

How the results depend on the processing

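With the replicate block 196 probe sets were called in all; the count was 19 without the replicate block, with the pairing ignored, and 1504 with the block on the 6 arrays of the clones alone. The differences are the same in all 3 fits and the spread differs. Leaving out single arrays, or all arrays of a replicate number, gave between 2 (without replicate 2) and 950 (without NIH 3T3 replicate 1) called probe sets. Without a single SV5 array the count was 21 to 24, without a single SV5-NN4 array 14 to 42, and without NIH 3T3 replicate 2 or 3 it was 102 and 317. The sign of all 130 called genes held in each of these leave-outs. Of the 130, 6 stayed called without each of the 6 clone arrays in turn (Cd24a, Cdh11, Crtap, Dlk1, Pcdhb20 and Reck) and 94 were lost without every single one of them. An intensity trend, a pseudocount of 16, median centring and quantile normalization gave 186, 138, 186 and 225 called probe sets; the filter at the median level gave 286, and averaging each gene's probe sets gave 199 genes. Without NIH 3T3 replicate 2, 59 of the 130 genes stayed called. Signal over background limits 4 of the 84 falls, Agtr2, Cd24a, Cd302 and Pcdhb9, whose SV5-NN4 means lie within the range of the bacterial controls. The 3 arrays per line limit the precision of every value.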

Other observations

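A few called falls outside the gene lists are given here, chosen after their values were seen. Sfmbt2, a Polycomb-related protein, read 6.78, 7.04 and 7.92 in SV5 and 4.62, 5.61 and 4.68 in SV5-NN4 (difference -2.27, SE 0.35, limma adjusted p = 0.039). Kdm5b, a histone H3 demethylase, read 7.04, 8.28 and 7.92 against 5.71, 6.34 and 6.03 (-1.72, SE 0.19, adjusted p = 0.018). Smarca1, an ATPase that moves nucleosomes, differed by -1.50 (adjusted p = 0.044). The clones did not overlap for any of these genes. Sfmbt2 and Smarca1 lost their calls without any single array of the clones, and Kdm5b without any but SV5-NN4 replicate 1 (adjusted p up to 0.16). Gas2, a protein of the actin cytoskeleton first described in growth-arrested fibroblasts, read 10.05, 9.05 and 9.02 in SV5 and 7.48, 7.27 and 6.93 in SV5-NN4 (-2.15, SE 0.17, adjusted p = 0.0050) and was lost without SV5-NN4 replicate 3 (adjusted p = 0.057). Cav1, the main coat protein of caveolae, fell by 1.0 (adjusted p = 0.025) and was lost without any single array of the clones (up to 0.20).

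Some of the widest differences missed the threshold, and these too were chosen after their values were seen. Ank3, a membrane skeleton adaptor, read 6.48, 7.69 and 7.55 in SV5 and 3.97, 4.04 and 3.91 in SV5-NN4 (-3.26, adjusted p = 0.053). Cdo1, cysteine dioxygenase, differed by -3.16 at an adjusted p of 0.050, just above the threshold. Rhox5, a homeobox gene of the X chromosome, read 7.61, 9.63 and 9.63 in SV5 and 11.23, 11.14 and 12.29 in SV5-NN4 (2.60, adjusted p = 0.15). Its clones did not overlap.

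Probe sets of a gene did not always move together. Among genes described above, Grb10 differed by -1.04 at its brightest and by -0.06 and -0.12 at its other probe sets, Pdgfra by -2.10 and -0.70, Capn6 by -2.73 and -0.34, and Metrn by 1.52 and 0.34. Of 160 genes with a called probe set, 91 had more than 1 probe set, and 14 of these had probe sets with differences of both signs. For 30 genes the called probe set was not the brightest, among them Egfr (-1.42 at the called and -0.19 at the brightest), Prrx1 (-1.78 and -0.63) and Mcm3 (0.85 and 0.75 at the called, 1.12 at the brightest). A further 16 called probe sets had no symbol and 3 had several, and they represent no gene here.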
